A study of Mus musculus with 6 samples.

Results

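The adipogenic transcription factors described here are 10 mouse genes, Pparg, Rxra, Cebpb, Cebpd, Cebpa, Ebf1, Ebf2, Prdm16, Zfp423 and Klf15, taken by symbol from a deposited table of 54532 genes. All 10 had 1 row each, and all 10 were among the 15591 genes with enough reads to test. RNA was sequenced from iWAT, the inguinal white fat depot, of old aged mice exposed to cold for 7 days, a stimulus that induces heat-producing beige adipocytes in white fat. There were 3 libraries from estrogen-treated mice and 3 from vehicle-treated mice, and the series asks how estrogen acts on beige adipocytes in old animals. No strain, sex, age in months, estrogen compound, dose or route is stated in the labels used here. Whether a library stands for 1 animal is not stated either, so each p-value reflects only how far these samples spread, and that spread may be technical.

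Adipocytes form in a transcriptional cascade. C/EBP beta and C/EBP delta appear early, and they switch on PPAR gamma and C/EBP alpha, which then maintain each other and the genes of the lipid-storing cell. PPAR gamma binds DNA as a heterodimer with RXR alpha. The early B cell factors EBF1 and EBF2 and the zinc finger protein ZFP423 mark commitment to the fat lineage, and PRDM16 with EBF2 directs cells to the brown and beige fate. KLF15 is a Krüppel-like factor of mature adipocytes that glucocorticoids induce.

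With estrogen, none of the 10 factors passed the test. Cebpa and Klf15 had the most positive log2 fold changes, 0.57 ± 0.25 and 0.73 ± 0.42 (SE, 3 libraries a group), and Cebpd the most negative, -0.75 ± 0.24. Pparg, Rxra, Ebf1, Prdm16 and Zfp423 lay within 1.5-fold of the vehicle level over their whole 95% intervals, and the groups overlapped for every factor. By edgeR's quasi-likelihood test, 0 of 10 had an adjusted p under 0.05, against 0 of all 15591 genes (0%). At an unadjusted p under 0.05 there was 1 factor, Cebpd, where 20.4% of all genes had such a p (10.9% on the lower side). DESeq2 and limma-voom also called 0 of the 10, while DESeq2 called 6.09% of the 14026 genes to which it gave an adjusted p (2.75% higher and 3.34% lower with estrogen). The 3 estrogen libraries lay wholly apart from the 3 vehicle libraries for 0 of 10 factors and for 27.5% of all genes (12.8% higher and 14.7% lower with estrogen). The median log2 fold change was -0.05 over the factors and 0.0025 over all tested genes.

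Libraries held 16046601 to 20736771 counts, and mitochondrial genes took 9.08 to 11.7% of them in estrogen libraries and 6.26 to 8.72% in vehicle libraries, without overlap; the part of this difference in the values that follow was not tested. Summed markers of mature adipocytes (Adipoq, Plin1, Cidec, Fabp4, Lipe and Lep) ran from 16466 to 25166 counts per 1000000 (CPM, scaled by trimmed mean of M values, TMM) with estrogen and from 11656 to 15439 CPM with vehicle. Progenitor markers ran from 322 to 690 CPM with estrogen and from 884 to 2025 CPM with vehicle, and macrophage markers from 329 to 868 CPM with estrogen and from 1141 to 1630.2 CPM with vehicle. By summed markers, estrogen replicate 3 had the most adipocyte and the least progenitor, macrophage and thermogenic RNA. Single markers did not all follow their sum. Fabp4, at 13660 CPM there, was the largest part of the adipocyte sum, and Lep was lowest in that library, at 28.6 CPM. The progenitor markers F3 and Dlk1 and the thermogenic markers Elovl3 and Cidea were not lowest there, while Ucp1 was, at 10.2 CPM. Estrogen replicates 1 and 3 held 188 and 121 CPM of B cell markers, against 5.03 to 7.72 CPM in the other 4 libraries, and estrogen replicate 1 held 6345 CPM of skeletal muscle markers, against 2.58 to 58.9 CPM elsewhere. Neutrophil markers stood at 161 CPM in vehicle replicate 1 and at 25.8 to 35.3 CPM in the other libraries, T cell markers at 46.9 CPM in estrogen replicate 1 and at 1.77 to 7.87 CPM in the others. Endothelial markers ran from 483 to 688 CPM with estrogen and from 402 to 555 CPM with vehicle, and mural markers from 313 to 331 CPM with estrogen and from 270.3 to 446 CPM with vehicle. The 6 mammary epithelial markers summed to 0.57 CPM or less in each library, with 2 of them at 0 in all estrogen libraries and 3 in all vehicle libraries; no gene of the other lists was at 0 throughout a group. In whole tissue, fewer cells of a type and less RNA per cell cannot be told apart.

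Per kilobase of gene length, the factors covered a wide range of levels. Cebpa was the most abundant, at 563 ± 174 CPM per kilobase with estrogen and 379 ± 66.9 with vehicle (SD, n = 3 each), and it ranked 1 of 1002 transcription factors in each of the 6 libraries; these are the 1001 tested genes with a family in the authors' annotation column, plus Cebpd. Cebpb followed, with 93.1 ± 31.3 CPM per kilobase in estrogen libraries and 105.5 ± 34.6 in vehicle libraries. Pparg came next, with 56.4 ± 13.2 in estrogen libraries and 59.5 ± 11.5 in vehicle libraries. The means of Klf15 (37.4 ± 22.7 with estrogen, 22.5 ± 6.72 with vehicle) and Rxra (32.8 ± 4.22 with estrogen, 30.2 ± 3.52 with vehicle) stood in opposite order in the 2 groups. Klf15 lay above Rxra only in estrogen replicate 3, at 63.5 against 37.6 CPM per kilobase. The means of Ebf1 (12.8 ± 1.25 with estrogen, 11.5 ± 1.30 with vehicle) and Cebpd (6.96 ± 1.62 with estrogen, 11.7 ± 3.04 with vehicle) also stood in opposite order. Cebpd lay above Ebf1 only in vehicle replicates 2 and 3. Zfp423, Ebf2 and Prdm16 were the lowest, and Prdm16, at 2.30 ± 0.487 with estrogen and 2.44 ± 0.0618 with vehicle, ranked between 422 and 547 among the transcription factors. Within the estrogen group the ranges overlapped between Cebpb and Pparg, Pparg and Klf15, Klf15 and Rxra, Cebpd and Zfp423, and Cebpd and Ebf2. Within the vehicle group they overlapped between Rxra and Klf15, Cebpd and Ebf1, and Zfp423 and Ebf2.

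Promoter sequence is shown for Pparg, Cebpa, Klf15 and Cebpb, as the 250 bases before a transcription start on the plus strand, from RefSeq on build GRCm38.p6 (mm10). The Pparg start shown is the downstream one of 3 listed, the start of the gamma 2 form, on which C/EBP proteins are known to act. Cebpa and Klf15 are shown because both stood highest in estrogen replicate 3, and Cebpb because it stood lowest there. Capitals mark matches, on either strand, to TTNNGCAA (C/EBP), CACGTG (E-box), CCCCACCC (KLF) or GGGCGG (GC box).
Pparg (chr6:115421816-115422065): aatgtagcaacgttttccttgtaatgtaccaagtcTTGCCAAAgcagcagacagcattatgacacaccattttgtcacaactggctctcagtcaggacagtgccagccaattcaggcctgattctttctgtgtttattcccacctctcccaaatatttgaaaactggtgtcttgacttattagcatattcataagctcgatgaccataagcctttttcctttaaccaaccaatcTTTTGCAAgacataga
Cebpa (chr7:35119043-35119292): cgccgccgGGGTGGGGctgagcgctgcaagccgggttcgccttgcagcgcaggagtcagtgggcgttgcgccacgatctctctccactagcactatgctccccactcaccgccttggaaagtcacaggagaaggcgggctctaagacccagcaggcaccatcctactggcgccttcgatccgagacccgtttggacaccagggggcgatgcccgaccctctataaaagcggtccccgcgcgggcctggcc
Klf15 (chr6:90462326-90462575): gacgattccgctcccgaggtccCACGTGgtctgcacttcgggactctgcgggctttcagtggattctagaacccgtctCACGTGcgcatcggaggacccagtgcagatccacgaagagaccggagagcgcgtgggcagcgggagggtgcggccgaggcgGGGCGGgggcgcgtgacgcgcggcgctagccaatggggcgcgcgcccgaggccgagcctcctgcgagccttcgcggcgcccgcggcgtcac
Cebpb (chr2:167688665-167688914): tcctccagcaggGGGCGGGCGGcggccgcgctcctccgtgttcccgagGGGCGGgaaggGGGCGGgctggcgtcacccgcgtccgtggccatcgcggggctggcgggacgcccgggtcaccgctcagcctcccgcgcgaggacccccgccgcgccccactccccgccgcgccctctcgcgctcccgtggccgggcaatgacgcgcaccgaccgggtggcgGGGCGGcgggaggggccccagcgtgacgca
The Pparg window held 2 C/EBP matches, beginning 215 and 16 bases before the start, and 9.56% of all 32851 such windows held at least 1. The Klf15 window held 2 E-boxes, 228 and 172 bases before the start, a motif of 6.02% of windows, and 1 GC box. The Cebpa window held 1 KLF match (9.05% of windows) and the Cebpb window 5 GC boxes (32.7% of windows), of which 2 overlap each other. RefSeq windows matched 8 of the 10 factors (13 windows in all, with none for Cebpd or Ebf2), and 2 of these 13 held a C/EBP match, 1 an E-box, 3 a KLF match and 8 a GC box. None of the 13 held TGACGTCA (the cAMP response element), GNACA and TGTNC with 3 bases between (the glucocorticoid response element), AGGTCA repeated after 1 base (the DR1 element of PPAR and RXR) or TCCC and GGGA with 2 bases between (the EBF motif), which were in 1.55%, 0.387%, 0.0335% and 0.779% of all windows. A match describes the letters in a window and is not a binding site.

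**Figure D1:**
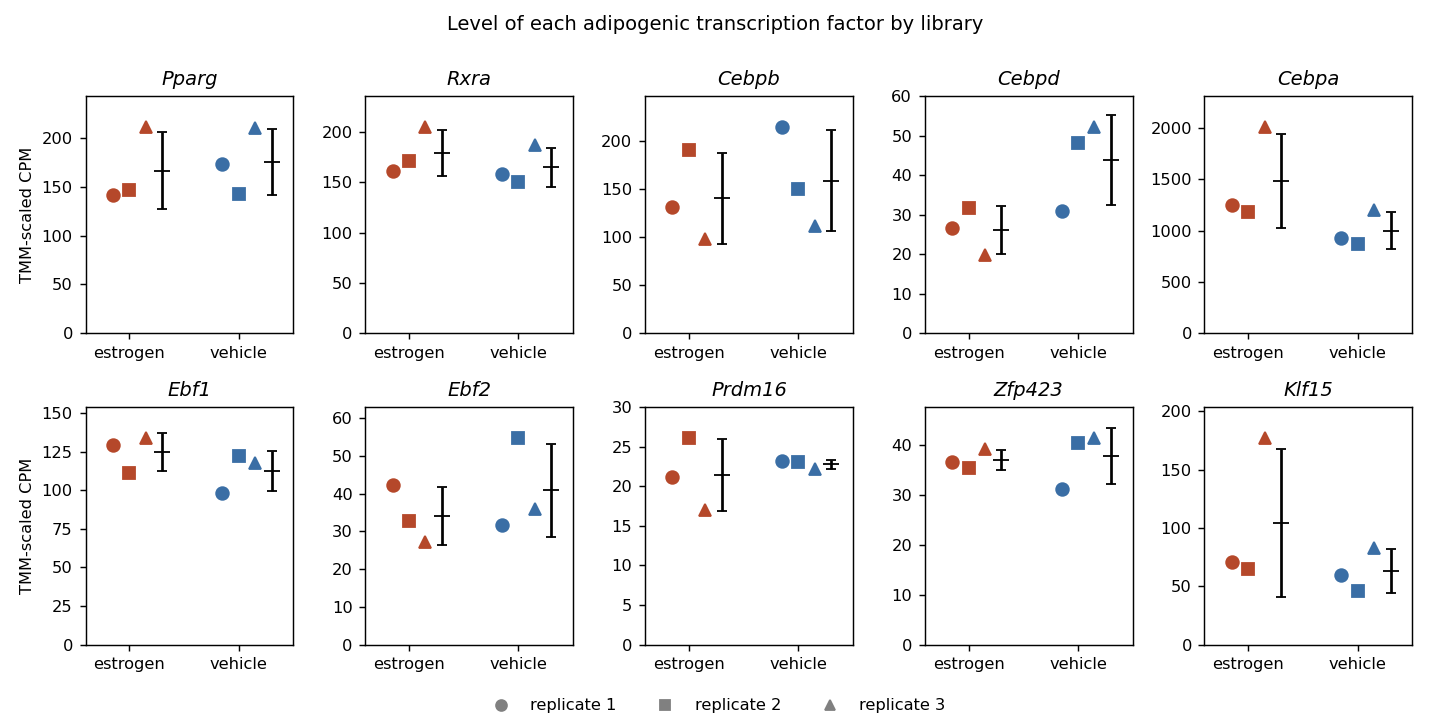
TMM-scaled CPM (vertical axes, each from 0) of the 10 factors in estrogen and vehicle libraries; symbols give the replicate number, and the black dash with its bar is the mean and SD of 3 libraries. The estrogen and vehicle points overlap in every panel, and estrogen replicate 3 stands highest for Klf15 (177 CPM) and Cebpa (2012 CPM).

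Pparg, the nuclear receptor at the centre of adipogenesis (ENSMUSG00000000440, chromosome 6, 115360951 to 115490399, mm10), was at 142, 146 and 212 CPM in estrogen replicates 1, 2 and 3 and at 174, 143 and 211 CPM in vehicle replicates 1, 2 and 3. Replicate 3 was the highest library in both groups, and the groups overlapped throughout. The log2 fold change was -0.08, with a 95% interval from -0.58 to 0.43 that is not adjusted for the number of genes (edgeR, adjusted p = 0.857), and its sign changed with the library left out. The 2 main protein forms of Pparg start at different promoters, and a count per gene cannot tell them apart.

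Rxra, the DNA-binding partner of PPAR gamma (ENSMUSG00000015846, chromosome 2, 27676440 to 27762957), was at 161, 171 and 205 CPM in estrogen replicates 1 to 3 and at 158, 150 and 187 CPM in vehicle replicates 1 to 3. Its log2 fold change was 0.12 (95% interval -0.24 to 0.48; edgeR, adjusted p = 0.666), and 0.012 without estrogen replicate 3. Between its highest and lowest library Rxra differed by 1.36-fold and Pparg by 1.49-fold. Across the 6 libraries their log2 levels, each set against its own mean, differed by 0.14 on average. By the same measure Rxra differed from Zfp423 by 0.13 and from Ebf1 by 0.15, and from 9700 other genes by a median of 0.20.

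Among the C/EBP factors, the log2 fold change was positive for Cebpa and negative for Cebpb and Cebpd, and only the Cebpd interval lay on one side of 0. Cebpa, the late factor that maintains the mature adipocyte (ENSMUSG00000034957, chromosome 7, 35119293 to 35121928), was at 1253, 1184 and 2012 CPM in estrogen replicates 1 to 3 and at 929, 869 and 1200 CPM in vehicle replicates 1 to 3. The lowest estrogen library lay just under the highest vehicle library, and estrogen replicate 3 stood apart above all others. The mean level was 1483 ± 459 CPM in estrogen libraries against 999 ± 176 CPM in vehicle libraries (SD over the 3 libraries of each group), a log2 fold change of 0.57 ± 0.25 (SE; 95% interval -0.03 to 1.17; edgeR, adjusted p = 0.256). Without estrogen replicate 3 it was 0.29.

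Cebpb, an early factor that hormones and cAMP induce (ENSMUSG00000056501, chromosome 2, 167688915 to 167690418), was at 132, 191 and 97.8 CPM in estrogen replicates 1 to 3 and at 215, 149.6 and 112 CPM in vehicle replicates 1 to 3. The spread within each group was wider than the difference between the group means, and the log2 fold change was -0.18 (95% interval -0.91 to 0.55; edgeR, adjusted p = 0.758). Leaving out estrogen replicate 3 gave 0.03, and leaving out vehicle replicate 1 gave 0.10. Of the exonic bases of Cebpb, 20.7% also lie in exons of Tmem189 on the other strand, and no source used here gives the strand setting of the counting, so reads there cannot be assigned to either gene with certainty.

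Cebpd, the other early C/EBP factor (ENSMUSG00000071637, chromosome 16, 15887286 to 15891031), was at 26.7, 31.8 and 19.7 CPM in estrogen replicates 1 to 3 and at 30.9, 48.3 and 52.4 CPM in vehicle replicates 1 to 3. All estrogen libraries were below vehicle replicates 2 and 3, and only vehicle replicate 1 lay within the estrogen range. The mean was 26.1 ± 6.08 CPM with estrogen and 43.9 ± 11.4 CPM with vehicle, a log2 fold change of -0.75 ± 0.24 (SE; 95% interval -1.33 to -0.17), and Cebpd had the smallest p of the 10 factors (unadjusted p = 0.0176, edgeR adjusted p = 0.207, DESeq2 adjusted p = 0.0874). The value ran from -0.95 to -0.58 over the fits that left out 1 library each. Cebpd shares 15.0% of its exonic bases with Spidr on the other strand, and the progenitor and macrophage marker sums lay lower in all 3 estrogen libraries too; their part in the Cebpd value was not tested.

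**Figure D2:**
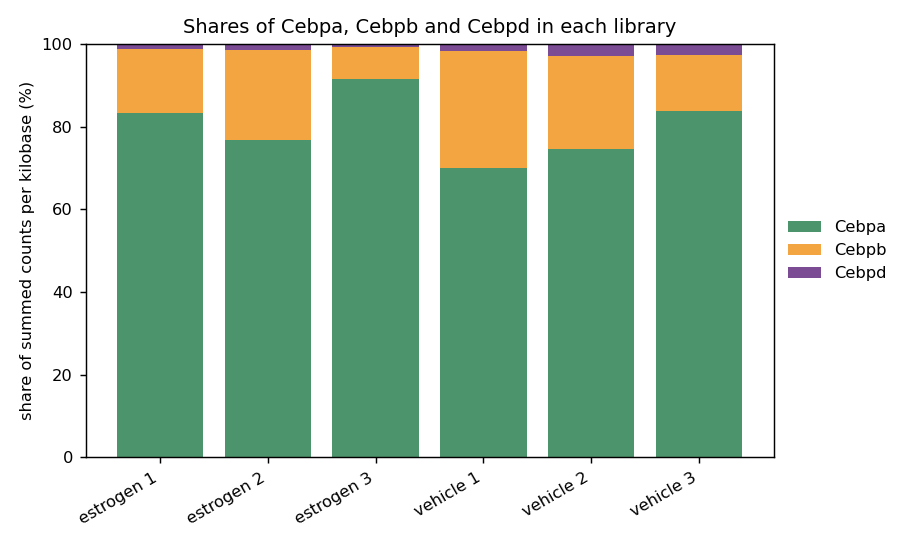
Stacked bars give the share (%) of Cebpa, Cebpb and Cebpd in their summed counts per kilobase, for estrogen libraries on the left and vehicle libraries on the right. Cebpa takes 91.6% in estrogen replicate 3 and 70.0% in vehicle replicate 1, the extremes of the 6 libraries.

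The balance within the C/EBP trio does not depend on how libraries are scaled. Of the summed counts per kilobase of Cebpa, Cebpb and Cebpd, Cebpa took 83.4, 76.8 and 91.6% in estrogen replicates 1 to 3 and 70.0, 74.6 and 83.8% in vehicle replicates 1 to 3. Cebpd took 1.25, 1.45 and 0.631% in the estrogen libraries and 1.64, 2.91 and 2.57% in the vehicle libraries. The Cebpd share thus did not overlap between the groups, while its own CPM did, and the share also carries the Cebpa level, most of its denominator. By CPM, 14.7% of all genes lay apart on the lower side. The log2 ratio of Cebpa to Cebpb counts was 3.25, 2.63 and 4.36 with estrogen and 2.11, 2.54 and 3.42 with vehicle. The means differed by 0.72 with overlapping groups (two-sided exact permutation p = 0.4, where 3 against 3 cannot go below 0.1), and by 0.25 without estrogen replicate 3.

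Ebf1, a commitment factor that B cells also require (ENSMUSG00000057098, chromosome 11, 44617317 to 45008091), was at 129, 111 and 134 CPM in estrogen replicates 1 to 3 and at 97.9, 122 and 117 CPM in vehicle replicates 1 to 3. Both estrogen libraries above the vehicle range, replicates 1 and 3, were those with 188 and 121 CPM of B cell markers, while estrogen replicate 2, with 6.87 CPM, lay inside it. The log2 fold change was 0.15 (95% interval -0.18 to 0.48; edgeR, adjusted p = 0.557). The part of B cells in the Ebf1 level was not tested.

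Ebf2, which selects brown and beige adipocyte precursors (ENSMUSG00000022053, chromosome 14, 67233292 to 67430918), was at 42.3, 32.9 and 27.2 CPM in estrogen replicates 1 to 3 and at 31.7, 54.8 and 36.1 CPM in vehicle replicates 1 to 3. Vehicle replicate 2, the library with the most progenitor marker RNA, was the highest. The log2 fold change was -0.26 (95% interval -0.83 to 0.32; edgeR, adjusted p = 0.567), and 0.01 without vehicle replicate 2. An antisense gene shares 6.12% of its exonic bases.

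Zfp423, which raises Pparg expression in preadipocytes and holds back thermogenesis in white adipocytes (ENSMUSG00000045333, chromosome 8, 87661810 to 87959595), was at 36.6, 35.4 and 39.2 CPM in estrogen replicates 1 to 3 and at 31.3, 40.6 and 41.5 CPM in vehicle replicates 1 to 3. The estrogen libraries lay within the vehicle range. Zfp423 had the narrowest interval of the 10, a log2 fold change of -0.03 with bounds of -0.35 and 0.29 (edgeR, adjusted p = 0.918), and the lowest ratio of highest to lowest library, 1.33.

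Prdm16, the coregulator of brown and beige identity (ENSMUSG00000039410, chromosome 4, 154316125 to 154636873), was at 21.2, 26.1 and 17.1 CPM in estrogen replicates 1 to 3 and at 23.2, 23.1 and 22.1 CPM in vehicle replicates 1 to 3. The vehicle libraries were nearly equal and the estrogen libraries lay on both sides of them, with the highest in replicate 2 and the lowest in replicate 3. The summed thermogenic markers Ucp1, Cidea, Cox8b and Elovl3 took the same order in the estrogen group, at 1232, 2867 and 329 CPM in estrogen replicates 1 to 3. In vehicle replicates 1 to 3 that sum was 1524, 1053 and 655 CPM, while Prdm16, with 456, 456 and 510 counts, hardly differed in CPM. The log2 fold change of Prdm16 was -0.09 (95% interval -0.48 to 0.31; edgeR, adjusted p = 0.790).

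Klf15, a factor of mature adipocytes (ENSMUSG00000030087, chromosome 6, 90462576 to 90475238), was at 71.2, 64.7 and 177 CPM in estrogen replicates 1 to 3 and at 59.6, 46.0 and 83.1 CPM in vehicle replicates 1 to 3. Estrogen replicate 3 held more than any other library, and the other estrogen libraries lay inside the vehicle range. The mean was 104 ± 63.2 CPM with estrogen and 62.9 ± 18.8 CPM with vehicle, a log2 fold change of 0.73 ± 0.42 (SE; 95% interval -0.25 to 1.71; edgeR, adjusted p = 0.345). It was 0.11 without estrogen replicate 3, which thus decided the value. Skeletal muscle also expresses Klf15, and estrogen replicate 1, the library with 6345 CPM of muscle markers, was at 71.2 CPM; the part of muscle in the Klf15 level was not tested.

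**Figure D3:**
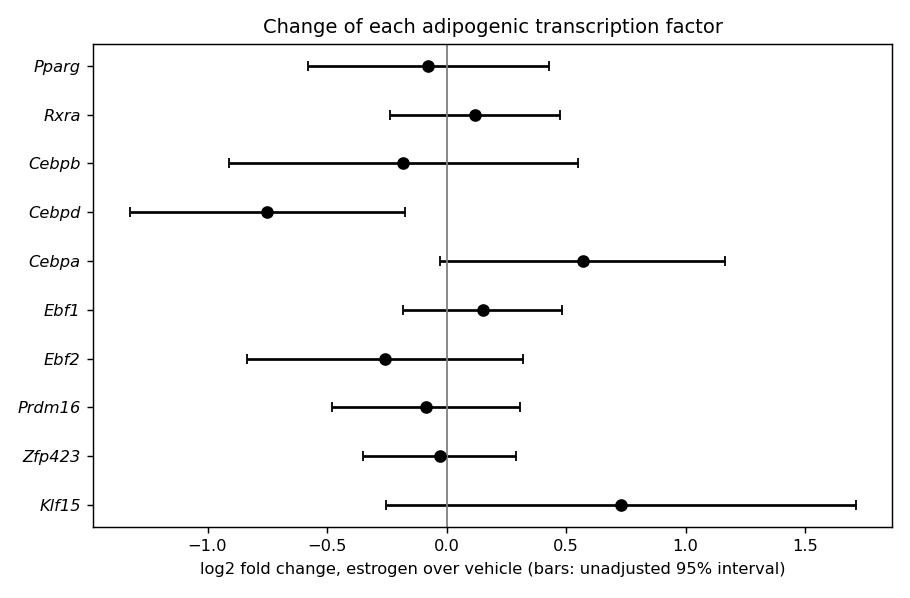
Log2 fold change of each factor, estrogen over vehicle (horizontal axis), with its unadjusted 95% interval from edgeR. Only the interval of Cebpd, from -1.33 to -0.17, lies on one side of 0, and that of Klf15, from -0.25 to 1.71, is the widest.

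The intervals show what these 6 libraries can tell. For 7 of 10 factors (all but Cebpd, Cebpa and Klf15) the 95% interval lay within 2-fold either way, and for 5 of them within 1.5-fold. These are bounds on each factor taken alone, and a missed threshold does not show equal levels.

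A single library stood at an end of the range for most factors. Estrogen replicate 3 was the highest library for 5 of 10 factors (Pparg, Rxra, Cebpa, Ebf1 and Klf15) and the lowest for 4 (Cebpb, Cebpd, Ebf2 and Prdm16). It was also the highest for 28.6% and the lowest for 29.4% of all tested genes, the largest such shares of the 6 libraries. Relative to each factor's mean over the 6 libraries, on the log2 scale, Klf15 stood at 1.23 and Cebpa at 0.75 there, and Cebpd at -0.74, Cebpb at -0.55, Ebf2 at -0.42 and Prdm16 at -0.36. The factors highest in that library include the late factors Cebpa and Pparg (Pparg nearly level with vehicle replicate 3), but also the commitment factor Ebf1. Those lowest in it are the early factors Cebpb and Cebpd and the beige factors Ebf2 and Prdm16. The same library had 25166 CPM of adipocyte markers, 322 CPM of progenitor markers and 329 CPM of thermogenic markers, the extremes of the 6, and the part of its cell makeup in these values was not tested.

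**Figure D4:**
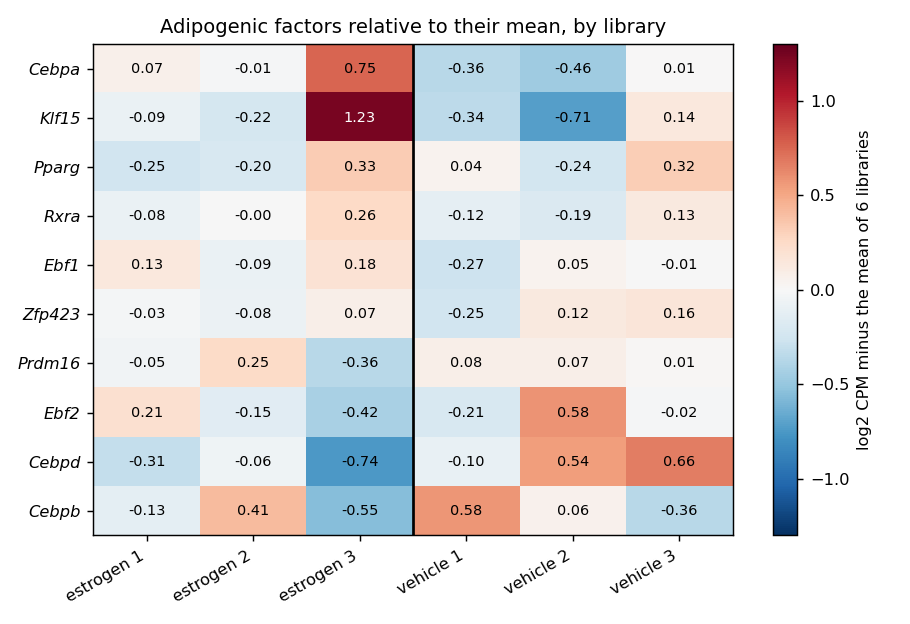
Log2 CPM of each factor minus its mean over the 6 libraries, estrogen on the left of the black line and vehicle on the right. The column of estrogen replicate 3 runs from 1.23 for Klf15 to -0.74 for Cebpd.

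Between factors, Ebf1 and Zfp423 were the most alike, with centred log2 levels that differed by 0.09 on average over the 6 libraries, and Cebpb and Klf15 the least, at 0.78. This measure is small for any genes that vary little. The highest library was 1.37 times the lowest for Ebf1 and 1.33 times for Zfp423, against 3.86 times for Klf15. Among 9700 other named genes whose log2 CPM averaged 3 or more, those most like Cebpd were Gas6 and Col15a1, which encode a ligand of receptor tyrosine kinases and a collagen (mean difference 0.07 for each, against a median of 0.44 over all candidates). For Klf15 they were Slc7a10, an amino acid transporter of white adipocytes, and Gpat3, an enzyme of glycerolipid synthesis (0.08 and 0.09, median 0.47). For Cebpa they were Gstz1 and Mocs1 (0.03 and 0.04), for Cebpb Rilpl2 (0.08), for Pparg Trp53bp2 and Kitl (0.05 and 0.07) and for Rxra Hyal2 and Tmem203 (0.03 and 0.04). For Ebf1 they were Wdr7 and Atg9a (0.02 each), for Ebf2 Zfp651 and Pdgfa (0.05 and 0.08), for Prdm16 Cyb5d1 and Tepsin (0.03 each) and for Zfp423 Asb1 and Slc28a2 (0.02 each). With 6 libraries that share depth and composition, such likeness among 9700 genes is a description only.

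Because the adipocyte marker sum was higher in each estrogen library than in any vehicle library, each factor was also set against it within its own library, a comparison chosen after seeing the data. Per 1000 CPM of adipocyte markers, Pparg stood at 8.62, 8.65 and 8.41 CPM in estrogen replicates 1 to 3 and at 11.5, 12.3 and 13.6 CPM in vehicle replicates 1 to 3. On this scale the groups no longer overlapped for 3 of 10 factors, Pparg, Rxra and Cebpd, each lower with estrogen (two-sided exact permutation p = 0.1 for each, the smallest that 3 against 3 allows). The same held for 34.3% of all genes, so the share among the factors is near the background. None of the 10 lay apart on the higher side, as 1.4% of all genes did. Against the geometric mean of the 6 markers in place of their sum, 1 of 10 factors (Cebpd) and 25.2% of all genes lay apart on the lower side. Cebpa, at 76.1, 70.0 and 79.9 CPM per 1000 with estrogen and 61.5, 74.6 and 77.7 with vehicle, overlapped.

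**Figure D5:**
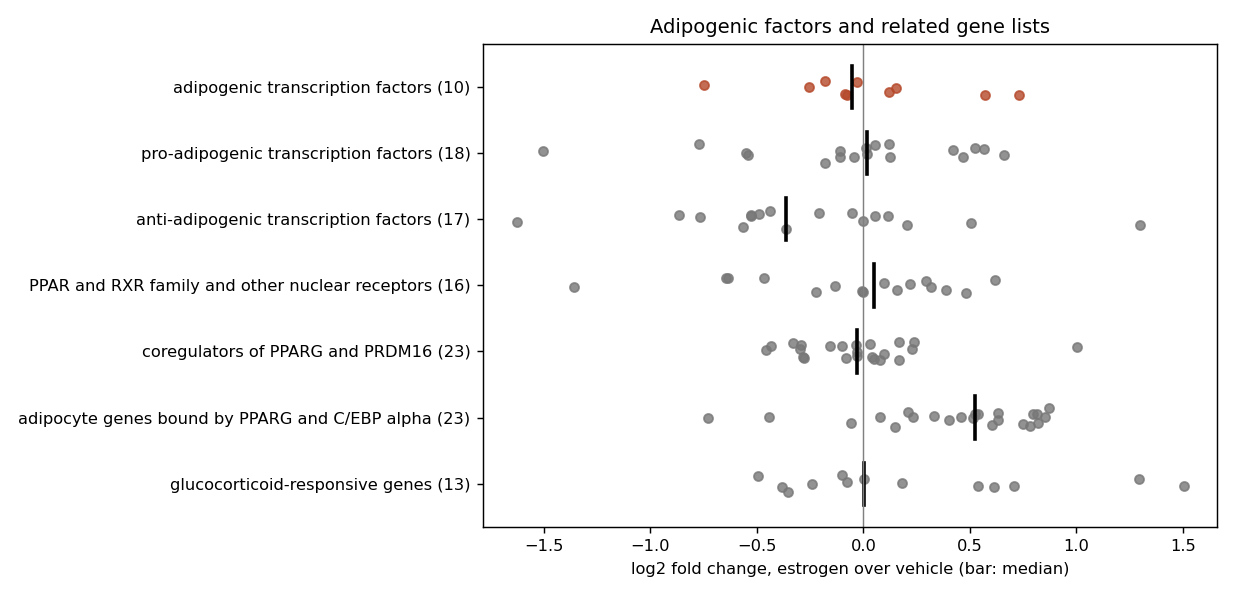
Log2 fold change, estrogen over vehicle, of each tested gene (points) in the 10 factors and in related gene lists, with the median as a black bar and the number of genes in brackets. The adipocyte genes bound by PPAR gamma and C/EBP alpha lie to the right, with a median of 0.52, while the factors are spread about 0.

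Genes that PPAR gamma and C/EBP alpha bind in adipocytes had mostly positive log2 fold changes. Of 23 tested, 20 had a positive log2 fold change, with a median of 0.52 against 0.0025 over all genes, and 7 had an unadjusted p under 0.05 on the higher side (9.49% of all genes did) and 0 on the lower. By edgeR 0 passed over all genes, and DESeq2 called 4 higher (2.75% of its genes). Of these, Slc2a4, the insulin-responsive glucose transporter, averaged 441 ± 94.8 CPM in estrogen libraries against 242 ± 9.67 CPM in vehicle libraries. Pnpla2, the first lipase of lipolysis, averaged 4053 ± 1298 CPM with estrogen against 2243 ± 351 CPM with vehicle. Agpat2, an enzyme of triglyceride synthesis, and Retsat, a retinol saturase, had log2 fold changes of 0.82 and 0.63. The estrogen libraries lay wholly above the vehicle libraries for 10 of the 23, against 12.8% of all genes. The median was 0.27 without estrogen replicate 3. All 6 adipocyte markers are in this list and their sum was higher in every estrogen library; the part of adipocyte content was not tested.

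Other transcription factors that promote adipogenesis went both ways. Of 18, 10 had a positive and 8 a negative log2 fold change (median 0.02), 3 and 4 of them at an unadjusted p under 0.05 (9.49% higher and 10.9% lower over all genes). By edgeR 0 passed, and DESeq2 called 2 higher and 3 lower (2.75% and 3.34% of its genes). Klf6, a Krüppel-like factor, averaged 74.1 ± 4.29 CPM in estrogen libraries against 108 ± 1.86 CPM in vehicle libraries. Creb1, the cAMP-responsive factor that induces Cebpb, had a log2 fold change of -0.55, and Egr2, an immediate early factor upstream of Cebpb, one of -1.50. Nfia, which acts in brown adipocytes, averaged 120.04 ± 25.1 CPM in estrogen libraries against 76.0 ± 3.18 CPM in vehicle libraries. For each of these 4, which have the smallest p in the list, the groups did not overlap (edgeR adjusted p = 0.207 for each). Over the whole list 3 lay apart on the higher and 3 on the lower side, against 27.5% of all genes in either direction.

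Factors that restrain adipogenesis had mostly negative log2 fold changes. Of 17 tested, 12 had a negative and 5 a positive log2 fold change (up to 1.30), with a median over all 17 of -0.36 (-0.22 without estrogen replicate 3). The estrogen libraries lay wholly below the vehicle libraries for 6 of the 17 and wholly above for 0, against 14.7% and 12.8% of all genes. At an unadjusted p under 0.05 there were 4 on the lower side and 0 on the higher (10.9% and 9.49% of all genes). By edgeR and by DESeq2, 0 passed. The 4 were Klf2 (log2 fold change -0.36), Klf3 (-0.53), the low-level Sox9 (-1.63) and the Notch target Hes1 (-0.57). Klf2, which represses the Pparg promoter, averaged 59.9 ± 1.60 CPM in estrogen libraries against 76.9 ± 3.89 CPM in vehicle libraries. The progenitor marker sum lay lower in every estrogen library too, and its part in these values was not tested.

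Among 16 other nuclear receptors the median was 0.05 (-0.04 without estrogen replicate 3), with 8 on each side, 2 higher and 1 lower at an unadjusted p under 0.05 and 0 called by edgeR or DESeq2. That count is near the share of all genes with such a p, 20.4%. Esr1, the estrogen receptor alpha, was at 63.5, 50.2 and 94.5 CPM in estrogen replicates 1 to 3 and at 46.9, 45.9 and 42.7 CPM in vehicle replicates 1 to 3. Its groups did not overlap, as for 12.8% of all genes on the higher side, with a log2 fold change of 0.62 (edgeR adjusted p = 0.212). Of the 16 receptors, 2 lay apart on the higher and 2 on the lower side, near the 27.5% of all genes in either direction. Esrra, an estrogen-related receptor of mitochondrial genes, had a log2 fold change of 0.48, and the retinoic acid receptors Rara and Rarg had -0.65 and -0.63. Of 23 coregulators of PPAR gamma and PRDM16, 13 were negative (median -0.03), with 1 higher and 3 lower at an unadjusted p under 0.05, no more than the 20.4% of all genes, and 0 called by edgeR (DESeq2 1 higher, against 2.75% of its genes). Ppargc1b, a coactivator of mitochondrial genes, was at 22.4, 30.2 and 21.7 CPM with estrogen and at 11.6, 11.6 and 13.8 CPM with vehicle, a log2 fold change of 1.005 (edgeR adjusted p = 0.207). Rcor1, the corepressor Tle3 and the coactivator Ncoa3 had -0.43, -0.46 and -0.33.

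Since glucocorticoids induce Klf15 and the early C/EBP factors, 13 other glucocorticoid-responsive genes were compared. Their median was 0.0034, with 7 positive and 6 negative, 2 higher at an unadjusted p under 0.05, against 20.4% of all genes in either direction, and 0 called by edgeR (DESeq2 2 higher, against 2.75% of its genes). Glul, the glutamine synthetase, was at 1964, 2429 and 5241 CPM in estrogen replicates 1 to 3 and at 1542, 1089 and 1293 CPM in vehicle replicates 1 to 3. The clock gene Per1 was at 71.3, 59.5 and 149 CPM in estrogen replicates 1 to 3 and at 25.6, 20.9 and 51.8 CPM in vehicle replicates 1 to 3. Estrogen replicate 3 was the highest library for 7 of the 13, Glul and Per1 included, and the lowest for 2, against 28.6% and 29.4% of all tested genes. Vehicle replicate 2 was the lowest for 6 of the 13, against 18.3% of all tested genes. Sult1a1 and Errfi1 had log2 fold changes of 0.70 and -0.50, and Errfi1 was lowest in estrogen replicate 3.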

How the data were processed

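The authors deposited raw read counts per Ensembl gene, not normalized, with coordinates and a gene length in bases. Alignment used HISAT2 and counting featureCounts on mm10, per the submitters' processing notes; no source used here gives their versions, the strand setting, the multi-mapping rule or the annotation release. All 10 factors had the same start and end in GENCODE M21, which also gave the exon overlaps. Symbols turned into dates (27 rows) were restored by gene identifier. Groups and replicate numbers came from the sample titles, whose numbers differ from those in some column names, and every 2 replicates differed by more than sampling noise (chi-square per degree of freedom of 41.7 or more).

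Counts were filtered with filterByExpr (15591 genes kept), TMM-scaled and tested with the quasi-likelihood method of edgeR 4.0.16. P-values were adjusted by Benjamini-Hochberg across the whole tested table, with calls made under 0.05. Log2 fold changes are estrogen over vehicle; standard errors and 95% intervals come from the F statistic. On simulated counts, the sign and size of large known changes were checked, and no condition was set on the share called. Alternatives used DESeq2 1.42.0 and limma 3.58.1, in R 4.3.3. Ratios of Cebpa to Cebpb used a pseudocount of 0.5. The factors and lists were chosen with earlier results of these data known. The text names all 10 factors, up to 4 genes of smallest p in each list, and the 2 genes most like each factor, of which 1 is not reported here. A list member named Gyk was not found under that symbol, and Gata3, Esr2 and Mt2 were too low to test. Alternatives covered scaling, filters, DESeq2, limma-voom, robust dispersions, a replicate block and leaving out libraries.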

Additional observations from a re-analysis of the deposited data

How the results depend on the processing

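None of the 10 factors was called under any alternative run, including DESeq2, limma-voom and each fit that left out 1 library, and the smallest adjusted p was 0.0874, for Cebpd by DESeq2. With all 6 libraries the count of calls over all genes was 0 in each edgeR and limma-voom fit and 854 with DESeq2. Leaving out 1 library gave 0 to 13 calls, with the 13 without estrogen replicate 2, and leaving out both estrogen replicates 1 and 3 gave 1. The last setting, added after seeing the data, leaves 1 estrogen library, which is assumed to vary like the vehicle libraries. Of 150 values of the factors under alternatives, 135 kept their direction, among them all for Cebpa, Cebpd and Klf15. Cebpa ran from 0.25 to 0.72, Cebpd from -0.95 to -0.46 and Klf15 from 0.05 to 0.98 on the log2 scale; the lowest Cebpa and Klf15 values and the Cebpd value nearest 0 were those without estrogen replicates 1 and 3. Leaving out 1 library in turn gave Pparg -0.29 to 0.072, Cebpb -0.47 to 0.098 (0.028 without estrogen replicate 3), Ebf2 -0.45 to 0.013, Prdm16 -0.25 to 0.056, Zfp423 -0.15 to 0.042, Rxra 0.012 to 0.22 and Ebf1 0.06 to 0.23. With library totals in place of TMM, which shifted the median of all genes from 0.0025 to -0.17, Rxra was at -0.063 and Ebf1 at -0.023, both above that shift. With that 1 estrogen library, Cebpb was at 0.28, Prdm16 at 0.21 and Ebf1 at -0.0097. The cause of these changes was not tested. The Cebpa to Cebpb difference ran from 0.25 to 1.12 (exact permutation p = 0.2 to 0.7) over the fits without 1 library. Of 90 list medians, 10 moved by more than their spread.

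The labels do not say whether replicate numbers pair the libraries. Numbers here and in the replicate block come from the sample titles. In the column names, estrogen replicate 2 and vehicle replicate 2 carry different numbers. Same-numbered libraries had correlations of their deviations from the group means of -0.12, 0.16 and 0.29. Estrogen replicate 1 correlated best with vehicle replicate 2 (0.13), and estrogen replicate 2 with vehicle replicate 1 (0.17). Estrogen replicate 3 correlated best with vehicle replicate 3. With 3 libraries a group, such correlations cannot decide whether libraries are paired. With a replicate block 0 genes and 0 factors were called, and Cebpd was at -0.74, Klf15 at 0.61 and Cebpa at 0.54. The block lowered the unadjusted edgeR p of Klf15 from 0.123 to 0.0204 and that of Cebpa from 0.0589 to 0.0287. That of Cebpd went from 0.0176 to 0.0211. The adjusted p with the block was 0.166 for Klf15, 0.189 for Cebpa and 0.167 for Cebpd. The lowest count behind a value of a factor was 245, for Prdm16 in estrogen replicate 3, and 3 libraries a group limit the precision of every comparison.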
